A study of Mus musculus with 20 samples.

Results

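The cytosolic ribosomal protein genes encode the proteins of the ribosome that works outside the mitochondria. They were taken as every gene of the deposited table whose symbol is Rps or Rpl with a number and an optional a or x, together with Rpsa, Rplp0, Rplp1 and Rplp2. The rule found 76 of 51810 genes, 30 of the small and 46 of the large subunit, and all 76 passed the filter on low counts. The data are polyA RNA sequencing of medullary thymic epithelial cells (mTEC), the stromal cells that show self-antigens to developing T cells, sorted from thymi of mice aged 4 to 5 weeks at 75000 mTEC a sample. The 4 groups are Trp53-cHyper mTEChi, Trp53-WT mTEChi, Trp53-cHyper mTEClo and Trp53-WT mTEClo, with 3 libraries each and no further treatment named. Trp53 encodes the transcription factor p53. The sources used here do not give what cHyper stands for, which cells carry the allele, how the sort gates were set or whether the replicates are separate mice. The p-values below therefore reflect variation between libraries that may be technical.

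The small subunit decodes the message and the large subunit joins the amino acids. The subunits are built in equal numbers, and most of their mRNAs start with a terminal oligopyrimidine (TOP) tract, a C followed by a run of C and T, through which mTOR signalling sets their translation. The family bears on p53 as well: Rpl5 and Rpl11, which bind 5S RNA, can bind Mdm2, the ubiquitin ligase that degrades p53, when ribosome assembly fails. Most members have processed pseudogenes, reverse-transcribed copies scattered over the genome.

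The annotated 5′ ends show the tract in part of the family. Of the principal transcripts of the members in GENCODE M21 (build GRCm38, sense strand), 24 of 76 (31.6%) started with C, against 16.9% of 20633 protein-coding genes of the table. A C followed by at least 4 more C or T bases opened 10 of 76 (13.2%), against 2.2% of the same genes. Since an annotated start can lie away from the start used in a tissue, a transcript without the run says only that these letters are not at that position. The first 20 bases of 5 members with the run, 5′ to 3′, carry it in capitals and show how its length varies.
Rps24: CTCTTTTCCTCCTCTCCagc
Rpl32: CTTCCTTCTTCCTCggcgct
Rps2: CTTCTTCTTCTTCgggagaa
Rpl4: CTTTTCCTgtgggagcagcc
Rpl30: CCTTTCTCgctccccggcca
The run is 17 bases long in Rps24 (chromosome 14), 14 in Rpl32 (chromosome 6), 13 in Rps2 (chromosome 17), and 8 in Rpl4 (chromosome 9) and Rpl30 (chromosome 15).

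The second sequence feature of the family is its copies. Rps27 (chromosome 3) has a retrogene, Rps27rt (chromosome 9), whose coding sequence differs from it at 0 of 252 bases, and a paralog, Rps27l (chromosome 9), that differs at 60 of 252. The first 60 coding bases are shown because their likeness bears on how fragments can be told apart; capitals mark bases that differ from Rps27.
Rps27: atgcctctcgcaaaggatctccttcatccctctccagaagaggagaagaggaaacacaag
Rps27rt: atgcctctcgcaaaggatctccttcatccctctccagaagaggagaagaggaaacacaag
Rps27l: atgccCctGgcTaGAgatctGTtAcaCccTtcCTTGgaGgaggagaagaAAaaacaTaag
A fragment from the coding start of Rps27 matches Rps27rt equally well. The sources used here do not say how the authors' counting treated such fragments, so the values of Rps27 and Rps27rt are uncertain individually. Rps27l differs at 18 of these 60 bases.

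Copies took more fragments than the genes themselves. At 90% identity or more over at least 50% of the coding sequence, 776 pseudogenes of the table matched a member, 753 of them processed pseudogenes. Over the 12 libraries they held 9.38 M fragments, against 5.64 M in the 76 members. The copies outnumbered the member for 52 of 76 genes, and by at least 10 times for 7. The extreme was Rps29 (chromosome 12, 69157722 to 69159186), a small subunit protein, whose copies held 96.5 times its fragments. Most of those lay in Gm14303 (chromosome 2, 172509521 to 172509691), a processed pseudogene identical to the Rps29 coding sequence over its whole length. By contrast Rpl8 and Rpl14 had no copy by this criterion, and the single copy of Rps19 was almost uncounted (8.6e-05 of the gene's own fragments). Whether these fragments came from the members or from transcribed copies was not tested, so results are also given with each member summed with its pseudogene copies. A further 17 matching genes of other biotypes, Rps27rt among them, were left out of these sums.

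**Figure D1:**
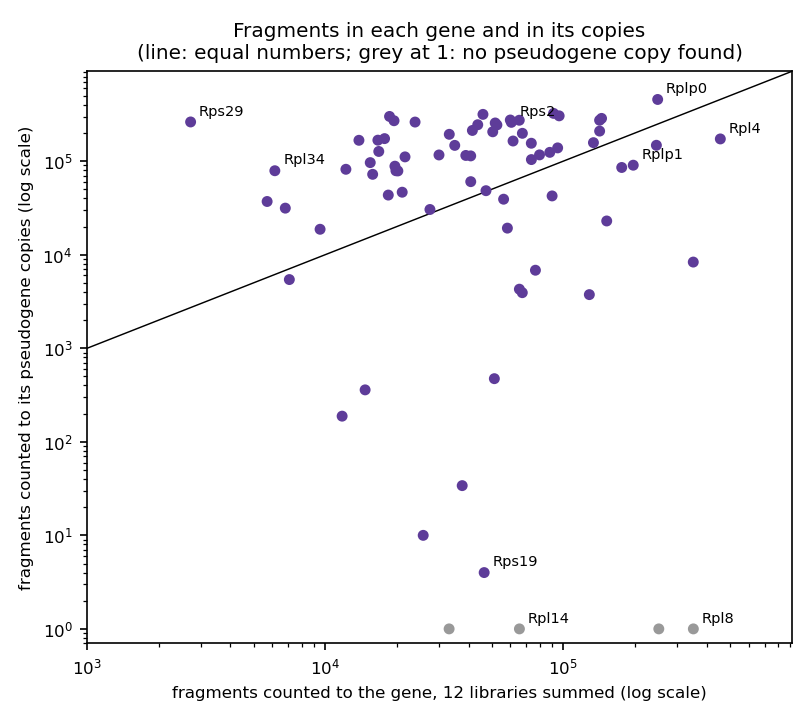
Fragments counted to each of the 76 genes (horizontal, log scale) and to its pseudogene copies (vertical, log scale), summed over 12 libraries; grey points have no pseudogene copy. Rps29 stands at the upper left with 96.5 times as many fragments in its copies, while Rpl8 and Rpl14 lie on the lower edge.

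Library totals ran from 22.02 M to 47.93 M fragments, with every replicate 3 at 25.31 M or less and every other library at 42.08 M or more. The sort labels were checked on markers: Aire, the factor that drives self-antigen expression in mature mTEC, averaged 1716 per-million counts (CPM) in cHyper mTEChi, 2098 in WT mTEChi, 41.4 in cHyper mTEClo and 13.5 in WT mTEClo. Krt5, a keratin of basal and immature mTEC, averaged 1391 CPM in cHyper mTEChi, 742 in WT mTEChi, 4868 in cHyper mTEClo and 5578 in WT mTEClo. Trp53 averaged 134 ± 4.65 CPM in cHyper and 101 ± 4.60 in WT mTEChi (log2 fold change 0.41, SE 0.083, edgeR adjusted p = 0.0200), and 166 ± 11.6 in cHyper and 137 ± 0.959 in WT mTEClo (0.27, SE 0.083, adjusted p = 0.0553; SD, n = 3 each). Cdkn1a, the p53 target that encodes p21, was lower in cHyper in both cell types (log2 -0.73 in mTEChi, adjusted p = 0.00418, and -0.89 in mTEClo, adjusted p = 0.000328). RNA levels do not show an altered protein, so they do not check the genotype labels.

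Each member was present in every library, but levels per unit length differed widely. In the deposited per-million transcript values (TPM), which divide by gene length, the member means over 12 libraries ran over 170.0-fold, with a median of 123, and 41 of 76 members reached 100 TPM. The stalk protein gene Rplp1, which helps recruit elongation factors, led with 1991 TPM. It was followed by Rpl8 (1283 TPM), Rpl4 (1121 TPM), Rps15 (1029 TPM) and Rpl41 (772 TPM), the last encoding the smallest ribosomal protein. Rpl34 (11.7 TPM), Rps13 (13.2 TPM), Rpl9 (19.6 TPM), Rps29 (20.1 TPM) and Rpl18 (26.9 TPM) stood lowest. Most ribosomal proteins are needed in equal numbers. Of the lowest genes, Rps29, Rpl34, Rpl9 and Rpl18 had copies that held 96.5, 12.9, 6.70 and 5.13 times their own fragments, and Rps13 a copy that held 0.767 times its own. Of the highest, Rplp1, Rpl41 and Rpl4 had copies that held 0.460, 0.486 and 0.379 times their own. The deposited lengths differ widely too. Rpl18 (4.043 kb) had 48.9 CPM and 26.9 TPM, whereas Rpl36 (0.383 kb) had 21.3 CPM and 124 TPM. The parts of copies and of length in this order were not tested.

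The members moved together across libraries. Between each member's log2 CPM and the mean of the other 75, Pearson's r over the 12 libraries had a median of 0.919, and 61 of 76 members reached 0.8; the libraries share their scaling and groups, so this is a description. Within groups, the SD of log2 CPM had a median of 0.17 and exceeded 0.3 in 5 members, led by Rps21 (0.95), Rpl38 (0.54) and Rps3 (0.37). Rps21, a small subunit protein gene, had 145, 262 and 165 CPM in cHyper mTEChi and 135, 182 and 169 CPM in WT mTEChi. In mTEClo it had 190, 248 and 238 CPM in cHyper, against 244, 286 and 29.7 CPM in WT. A single library, WT mTEClo replicate 3, was thus far below the other 11. Rps3, which lines the mRNA entry channel, was also lowest there, at 402 CPM against 829 and 831 CPM in the other WT mTEClo libraries. With its copies added, Rps21 still stood at 133 CPM in that library, against 337 and 396 CPM in the other WT mTEClo libraries.

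The first question is how the family differs between mTEChi, the more mature cells by convention, and mTEClo. A large share of it was lower in mTEChi in both genotypes. In cHyper, 31 of 76 members fell and 0 rose by edgeR's quasi-likelihood test with a Benjamini-Hochberg adjusted p below 0.05 over all 28932 genes tested, with a median log2 fold change of -0.29 (1.22-fold lower). In WT, 53 of 76 fell and 0 rose, with a median of -0.41 (1.33-fold lower). Of all genes tested, 25.8% were called lower and 38.7% higher in cHyper, and 29.4% lower and 40.2% higher in WT, with all-gene medians of 0.13 in cHyper and 0.12 in WT. The point estimate was positive for 3 of 76 members in cHyper and 1 of 76 in WT. In bulk samples, fewer cells with a transcript and less of it per cell cannot be told apart.

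The size of the decline depended on scaling. Scaling by library totals moved the median of all genes to 0.30 in cHyper and 0.34 in WT, and the member medians to -0.13 in cHyper and -0.19 in WT, with 9 members (11.8%; 19.2% of all genes) called lower in cHyper and 26 (34.2%; 21.7% of all genes) in WT. With copies added as well, 5 members (6.58%; 19.5% of all genes) were called lower in cHyper and 21 (27.6%; 21.7% of all genes) in WT. In cHyper the share of members called lower was thus below that of all genes under library totals. Under the scaling used elsewhere, with all 12 libraries, it was above (40.8%, against 25.8% of all genes). Relative to the median of all genes, the members stood at -0.42 in cHyper and -0.53 in WT; a change of scaling leaves this difference as it is by construction. With the replicate number as a block, which was taken as a pairing of the cHyper samples though no label names it, 52 members fell in cHyper (background 28.2%). Without cHyper mTEChi replicate 1 the cHyper count was 14, and without cHyper mTEClo replicate 2 it was 19. The cHyper count thus also depended on single libraries, and the all-gene shares of those fits are not given here.

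Rpl22 (chromosome 4, 152325742 to 152334071), a large subunit protein that the ribosome can spare and whose loss in mice blocks development of αβ T cells, had the lowest edgeR estimate in WT. It had 131, 151 and 129 CPM in cHyper mTEChi, against 246, 268 and 194 CPM in cHyper mTEClo. In WT it had 99.2, 117 and 91.9 CPM in mTEChi, against 202, 200.2 and 171 CPM in mTEClo. No mTEChi library reached any mTEClo library of the same genotype. The log2 fold change was -0.79 in cHyper (SE 0.13, edgeR adjusted p = 0.000100) and -0.90 in WT (SE 0.13, edgeR adjusted p = 2.5e-05), or 1.72-fold lower in cHyper and 1.86-fold lower in WT. Only 0.0894 fragments in copies were counted for each of its own, and with copies added its changes were -0.77 in cHyper and -0.87 in WT.

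Other large subunit genes stood close behind. Rpl13 had 73.2, 80.4 and 85.1 CPM in cHyper mTEChi against 143, 127 and 109 CPM in cHyper mTEClo, and 60.6, 69.0 and 69.8 CPM in WT mTEChi against 102, 126 and 122 CPM in WT mTEClo. The groups did not overlap in either genotype, with log2 fold changes of -0.67 in cHyper (SE 0.12, edgeR adjusted p = 0.000161) and -0.81 in WT (SE 0.12, edgeR adjusted p = 2.3e-05). Rpl14, for which no copy was found, fell by 0.54 on the log2 scale in cHyper (adjusted p = 0.00185) and by 0.73 in WT (adjusted p = 0.000121). Rpl15 fell in both genotypes too (log2 -0.47 in cHyper and -0.51 in WT), as did Rpl30, a protein at the joint between the subunits (-0.29 in cHyper and -0.61 in WT). Rpl38, which in mice is needed to translate a set of Hox mRNAs, had an estimate of -0.63 that did not pass in cHyper (adjusted p = 0.123) and fell by 0.84 in WT (adjusted p = 0.0471), with the second widest spread of the family.

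The small subunit showed the same direction. In cHyper, 10 of 30 small subunit members fell (median log2 -0.26) and 21 of 46 large subunit members (median -0.30). In WT, 17 of 30 small subunit members fell (median -0.36) and 36 of 46 large subunit members (median -0.45). Rps2, which sits at the mRNA entry, fell in cHyper, with 111, 110.3 and 135 CPM in mTEChi against 304, 167 and 169 CPM in mTEClo (log2 -0.85, SE 0.19, edgeR adjusted p = 0.00137). The change was -0.54 without cHyper mTEClo replicate 1, which stood highest, and also -0.54 with copies added, and it passed in both cases. In WT, Rps2 had 89.2, 80.1 and 86.3 CPM in mTEChi against 99.8, 133 and 113 CPM in mTEClo, which did not pass (-0.44, adjusted p = 0.0555). Rps4x, the X-linked small subunit gene, fell in both genotypes (-0.38, adjusted p = 0.00759 in cHyper, and -0.51, adjusted p = 0.000818 in WT). So did Rps27 (-0.43, adjusted p = 0.00859 in cHyper, and -0.65, adjusted p = 0.000442 in WT), with the limit on its retrogene given above. Rps27 had 7.98 to 17.0 CPM in single libraries, against a mean of 240.1 CPM over the 12 libraries for Rps27rt. Rps19, the gene most often mutated in human Diamond-Blackfan anaemia, fell by 0.34 in cHyper (adjusted p = 0.0391) and by 0.33 in WT (adjusted p = 0.0411). Rps6, the substrate of the mTOR-dependent S6 kinases, did not pass in either genotype (-0.17, adjusted p = 0.190 in cHyper, and -0.22, adjusted p = 0.0869 in WT).

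The genes of the 5S particle and the other X-linked genes differed in which of them passed. Rpl5 fell in both genotypes (-0.37, adjusted p = 0.0136 in cHyper, and -0.39, adjusted p = 0.00967 in WT). With its copies added it no longer passed (adjusted p = 0.0503 in cHyper and 0.0576 in WT). Rpl11 did not pass in cHyper (-0.14, adjusted p = 0.270) and fell in WT (-0.31, adjusted p = 0.0181). Of the X-linked large subunit genes, Rpl36a fell in both genotypes (-0.33 in each), whereas Rpl10 (-0.22 in cHyper and -0.37 in WT) and Rpl39 (-0.24 in cHyper and -0.56 in WT) passed in WT and not in cHyper. Rpl26, which in human cells promotes p53 translation, went likewise (-0.29, adjusted p = 0.0870 in cHyper, and -0.59, adjusted p = 0.00159 in WT). Rpl23 fell in both genotypes (-0.42 in cHyper and -0.56 in WT), and Rpl3, which reaches towards the peptidyl transferase centre, fell in cHyper (-0.27, adjusted p = 0.0313) and missed the threshold in WT (-0.24, adjusted p = 0.0513).

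The genes of the stalk did not pass, nor did Rpsa, the laminin receptor gene. Rplp0, the base of the stalk, had 519, 604 and 744 CPM in cHyper mTEChi against 542, 608 and 624 CPM in cHyper mTEClo. In WT it had 449.5, 526 and 638 CPM in mTEChi against 458, 484 and 574 CPM in mTEClo. The groups overlapped in both genotypes, with log2 fold changes of 0.07 in cHyper (SE 0.15, edgeR adjusted p = 0.689) and 0.09 in WT (SE 0.15, adjusted p = 0.614). Rplp1 (-0.04 in cHyper and -0.20 in WT), Rplp2 (0.12 in cHyper and -0.02 in WT) and Rpl41 (0.04 in cHyper and -0.10 in WT) did not pass either. Nor did Rpsa (-0.08 in cHyper and -0.10 in WT) or Rps27a, which is made as a fusion with ubiquitin (-0.08 in cHyper and -0.19 in WT). Whether these members differ from the rest of the family was not tested.

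**Figure D2:**
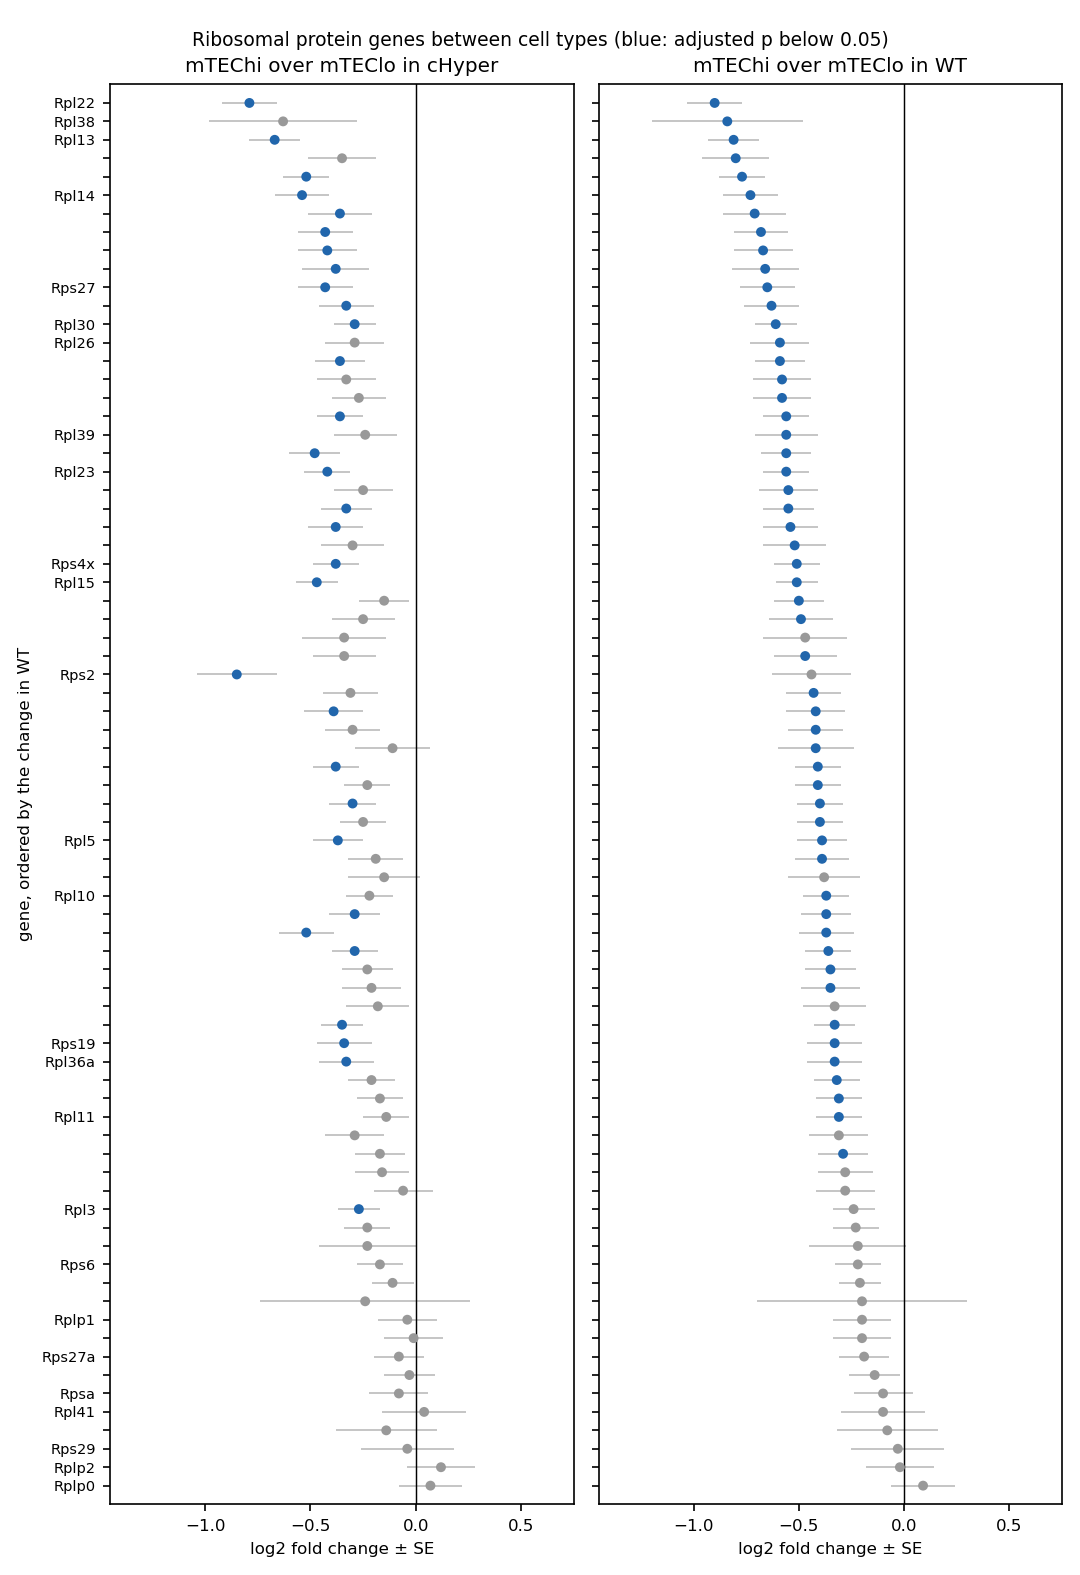
Log2 fold change of mTEChi over mTEClo for the 76 genes in cHyper (left) and WT (right), with standard errors, ordered by the change in WT, with genes described above for this comparison labelled; blue points have an edgeR adjusted p below 0.05 (31 in cHyper, 53 in WT). Rpl22 heads the order and Rplp0 closes it, the 1 member with a positive estimate in WT.

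Adding the copies left this comparison in place and changed single members. With each member summed with its copies, 29 of 76 fell in cHyper (background 26.4%) and 52 of 76 in WT (background 29.6%). Of these, 26 in cHyper and 48 in WT were members also called without their copies. Rps29 alone had 4.90, 4.83 and 7.79 CPM in WT mTEChi, against 5.24, 5.83 and 6.76 CPM in WT mTEClo (log2 -0.03, SE 0.22, adjusted p = 0.912). With its copies it had 379, 480 and 592 CPM in WT mTEChi, against 649, 688 and 826 CPM in WT mTEClo, and fell (-0.58, edgeR adjusted p = 0.00786). For Rps29 the call thus turned on fragments counted to copies identical or nearly identical to it.

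Of the members called lower, 29 were called in both genotypes, which is 93.5% of the cHyper calls and 54.7% of the WT calls. A test of the difference between the genotypes called 0 of 76 members in either direction, and 1 member had an unadjusted p below 0.05 (edgeR; 0 members were called by DESeq2 or limma-voom as well). In that test 1.13% of all genes were called higher and 0.926% lower. The larger count in WT is thus not shown to be a difference between genotypes. The interaction estimate was positive for 66 of 76 members, with a median of 0.14 (all genes 0.02). It ran from -0.41 for Rps2, -0.15 for Rps9 and -0.06 for Rpl13a to 0.34 for Rpl29, 0.35 for Rps16 and 0.45 for Rpl28.

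Among the 10 members whose annotated transcript opens with the pyrimidine run, 7 fell in cHyper (median -0.34) and 6 in WT (median -0.52). Among the 66 without it, 24 fell in cHyper (median -0.28) and 47 in WT (median -0.40).

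Markers of other cells moved with cell type. The summed level of 10 myeloid and dendritic markers was 532 to 604 CPM in cHyper mTEChi against 27.4 to 47.4 CPM in cHyper mTEClo, and 582 to 778 CPM in WT mTEChi against 29.6 to 33.4 CPM in WT mTEClo, most of it Lyz2 in mTEChi. That of 15 thymocyte markers was 200.1 to 218 CPM in cHyper mTEChi and 98.5 to 108 CPM in cHyper mTEClo, and 186 to 209 CPM in WT mTEChi and 67.3 to 92.4 CPM in WT mTEClo. The sum of the 5 cortical epithelial markers went the other way in both genotypes. It was 769 to 815 CPM in cHyper mTEChi against 2929 to 3192 CPM in cHyper mTEClo. In WT it was 653 to 745 CPM in mTEChi against 2156 to 2947 CPM in mTEClo. Most of the mTEClo sum was Ctsl (on average 2753 CPM in cHyper and 2263 in WT). Prss16 and Psmb11 also averaged lower in mTEChi, whereas Ly75 and Tbata averaged higher there in both genotypes. The 4 B cell markers summed to 29.7 to 35.0 CPM in cHyper mTEChi against 4.47 to 4.97 CPM in cHyper mTEClo, and to 33.9 to 38.2 CPM in WT mTEChi against 5.34 to 9.17 CPM in WT mTEClo. The 5 erythroid markers summed to 50.8 to 54.5 CPM in cHyper mTEChi against 4.27 to 8.79 CPM in cHyper mTEClo, and to 58.2 to 78.7 CPM in WT mTEChi against 12.1 to 19.2 CPM in WT mTEClo. The 4 endothelial markers reached at most 18.5 CPM in mTEChi and at most 3.42 CPM in mTEClo. The 7 fibroblast markers summed to 139.5 to 155 CPM in cHyper mTEChi against 69.5 to 108 CPM in cHyper mTEClo, and to 158 to 260.1 CPM in WT mTEChi against 37.2 to 38.4 CPM in WT mTEClo. Apart from the cortical list, the sums of these lists were thus higher in mTEChi. Single genes went the other way. The fibroblast markers Col3a1, Dpt and Lum and the thymocyte marker Bcl11b averaged higher in mTEClo in both genotypes. So did Rag2 in cHyper only, and Pdgfra, Lef1, Emcn and Hbb-bs in WT only. In mTEClo the fibroblast sum was higher in cHyper than in WT, but its genes were split. Col3a1 (63.1 CPM in cHyper against 22.5 in WT), Dpt (9.46 against 1.61) and Lum averaged higher in cHyper mTEClo. Col1a1, Col1a2, Pdgfra and Pdgfrb averaged lower there. No marker of any list was at 0 in a whole group. Mature mTEC transcribe many genes of other tissues, and the part of any of these levels in the ribosomal protein result was not tested.

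The second question is what the cHyper genotype changed. In mTEClo, Rps2 and Rps19 rose and 0 members fell, against 4.53% of all genes called higher and 4.64% lower, so the count of 2 of 76 is near the background. The median log2 fold change was 0.11 (1.08-fold), against 0.00 over all genes, and 65 of 76 estimates were positive. In mTEChi, Rps28 rose and 0 members fell, against 1.56% of all genes called higher and 0.418% lower. The median was 0.25 (1.19-fold), against -0.00 over all genes, and 75 of 76 estimates were positive. Markers that are high in mTEClo, where the members are higher too, also stood higher in cHyper than in WT mTEChi: Krt5 averaged 1391 CPM in cHyper against 742 in WT, Krt14 566 in cHyper against 263 in WT, Ccl21a 761 in cHyper against 389 in WT, and the cortical marker Ctsl 275 in cHyper against 173 in WT. The mature markers stood lower, with Aire at 1716 CPM in cHyper against 2098 in WT and Cd80 at 173 in cHyper against 218 in WT. In mTEClo the same markers were split by genotype. Krt5 (4868 CPM in cHyper against 5578 in WT), Ccl21a (5818 against 6691) and Cd80 (3.19 against 6.60) averaged lower in cHyper mTEClo. Krt14 (2149 CPM in cHyper against 2075 in WT), Ctsl (2753 against 2263) and Aire (41.4 against 13.5) averaged higher there. The 8 mTEC markers together ran from 10940.4 to 11799 CPM in cHyper mTEChi and from 10739.7 to 12443 CPM in WT mTEChi, and the part of these levels in the members' shift was not tested. Every cHyper library exceeded every WT library for 16 of 76 members in mTEClo (21.1%; 11.8% of all genes) and for 16 of 76 in mTEChi (21.1%; 12.4% of all genes). Rps12 in mTEClo was the 1 member (1.32%) with every cHyper library below every WT library. The all-gene share for that direction is not given here, so this count stands alone. With copies added, 2 members rose in mTEClo (background 4.69%) and 0 in mTEChi.

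In mTEChi the replicate number was taken as a pairing, though no label names it. Replicate number also went with library total, so a pairing and an effect of depth or run cannot be told apart. With the replicate block 15 members rose in mTEChi (3.26% of all genes were called higher). Among them were Rps28 (edgeR adjusted p = 0.00728), Rps19 (adjusted p = 0.00143), Rpl22, Rpl23, Rpl26, Rpl39 and Rps6. Without the block that count was 1. The members' medians relative to all genes were 0.10 in mTEClo and 0.26 in mTEChi.

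Rps2 (chromosome 17, 24718116 to 24721929) had 304, 167 and 169 CPM in cHyper mTEClo, against 99.8, 133 and 113 CPM in WT mTEClo. All cHyper libraries lay above all WT libraries, and cHyper replicate 1 was far above its partners. The log2 fold change was 0.89 (SE 0.19, edgeR adjusted p = 0.00927), and 0.53 without cHyper mTEClo replicate 1 (adjusted p = 0.0231). With its 40 copies added it was 0.38 (adjusted p = 0.0443). In mTEChi, Rps2 had 111, 110.3 and 135 CPM in cHyper against 89.2, 80.1 and 86.3 CPM in WT, which did not pass (0.48, adjusted p = 0.258).

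Rps19 (chromosome 7, 24884371 to 24889806), which is needed to mature the RNA of the small subunit, had 120, 152 and 142 CPM in cHyper mTEClo, against 87.9, 97.2 and 99.9 CPM in WT mTEClo. The groups did not overlap, with a log2 fold change of 0.54 (1.45-fold, SE 0.13, edgeR adjusted p = 0.0213). The call ended without cHyper mTEClo replicate 2 or 3 or any 1 of the WT mTEClo libraries (adjusted p 0.0513 to 0.0897). In mTEChi it had 92.2, 119 and 116 CPM in cHyper, against 62.2, 79.3 and 85.5 CPM in WT, again without overlap, at nearly the same size (0.53, adjusted p = 0.0598). Nearly no fragment was counted to its copy, and with the copy added the values were 0.54 and adjusted p = 0.0212 in mTEClo.

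Rps28 (chromosome 17, 33819027 to 33824562), a small protein near the mRNA exit, had 34.0, 37.5 and 45.2 CPM in cHyper mTEChi, against 21.3, 28.3 and 28.9 CPM in WT mTEChi. The groups did not overlap (log2 0.57, 1.48-fold, SE 0.14, edgeR adjusted p = 0.0454). The call ended without any 1 library other than cHyper mTEClo replicate 3 (adjusted p 0.0503 to 0.218), under library totals (adjusted p = 0.0775) and with copies added (0.43, adjusted p = 0.0896). In mTEClo its estimate was 0.26 (adjusted p = 0.266).

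The remaining members that open or close the order did not pass. Rpl38 had the highest estimates, 0.90 in mTEClo (SE 0.35, adjusted p = 0.134) and 1.10 in mTEChi (SE 0.36, adjusted p = 0.150), on 12.7, 8.90 and 28.5 CPM in cHyper mTEChi against 6.45, 7.47 and 9.27 CPM in WT mTEChi. Rps12 had the lowest, -0.30 in mTEClo (adjusted p = 0.178) and -0.10 in mTEChi (adjusted p = 0.769). Its libraries held 31.6, 33.8 and 36.7 CPM in cHyper mTEClo against 39.5, 45.0 and 41.4 CPM in WT mTEClo, and with its copies the mTEClo estimate was -0.03. The Mdm2-binding Rpl5 stood at 0.21 in mTEClo (adjusted p = 0.319) and 0.22 in mTEChi (adjusted p = 0.397), and Rpl11 at 0.01 (adjusted p = 0.993) and 0.19 (adjusted p = 0.442). Rpl26 stood at 0.00 in mTEClo and 0.31 in mTEChi (adjusted p = 0.314). The stalk genes Rplp0, Rplp1 and Rplp2 lay between 0.04 and 0.25 in the 2 cell types, and none passed.

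**Figure D3:**
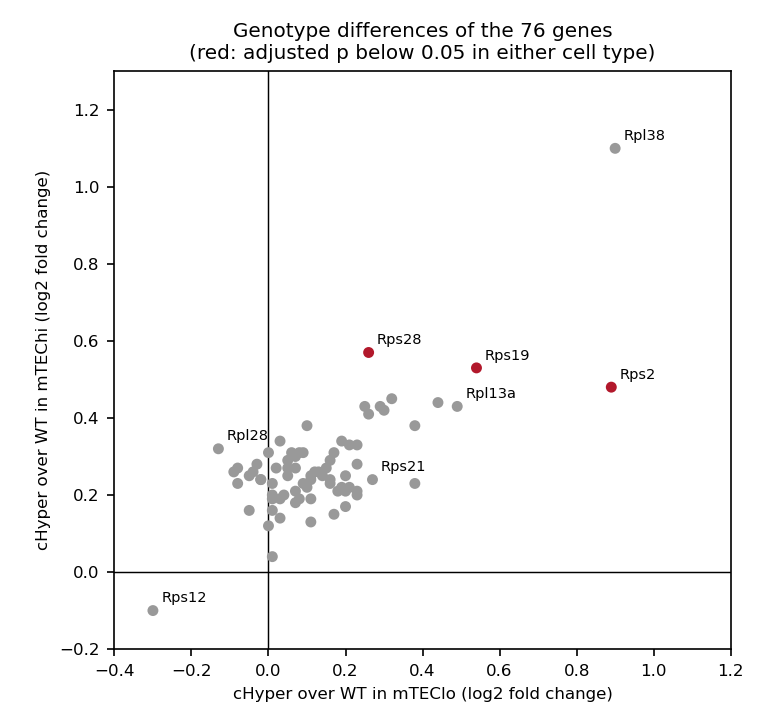
Log2 fold change of cHyper over WT for each of the 76 genes, in mTEClo (horizontal) and mTEChi (vertical), which share no library. Red points passed in either cell type (Rps2 and Rps19 in mTEClo, Rps28 in mTEChi), and Rps12 is the only gene below 0 in mTEChi.

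As a share of all counted fragments, the 76 members made up 1.15%, 1.34% and 1.34% of the cHyper mTEChi libraries and 0.982%, 1.14% and 1.22% of the WT mTEChi libraries. They made up 1.31%, 1.42% and 1.41% of the cHyper mTEClo libraries and 1.17%, 1.23% and 1.28% of the WT mTEClo libraries. The cHyper libraries lay above the WT libraries throughout in mTEClo and overlapped them in mTEChi, where each cHyper library still lay above the WT library of the same replicate number. The copies made up 1.89% to 2.33% in cHyper mTEChi, 1.63% to 2.07% in WT mTEChi, 2.11% to 2.38% in cHyper mTEClo and 1.94% to 2.28% in WT mTEClo, and overlapped between genotypes in both cell types, with each cHyper mTEChi library above the WT mTEChi library of its number. Replicate 1 had the lowest share of members in each of the 4 groups.

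**Figure D4:**
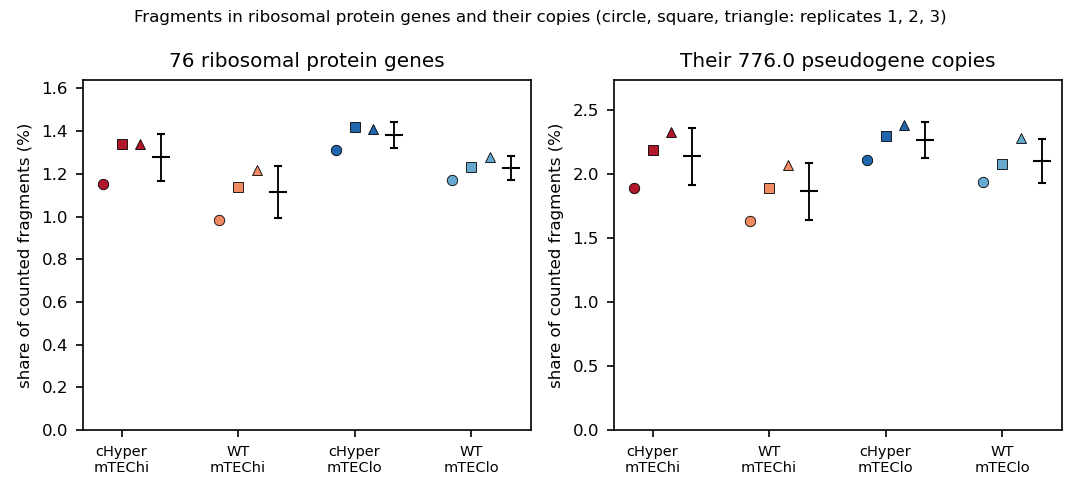
Share of counted fragments in the 76 genes (left) and in their 776 pseudogene copies (right), by library, with the group mean and SD (n = 3). Members averaged 1.28% in cHyper mTEChi, 1.11% in WT mTEChi, 1.38% in cHyper mTEClo and 1.23% in WT mTEClo.

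Among the paralogs outside the rule, Rps27l rose in cHyper. Rps27l (chromosome 9, 66946086 to 66949516), known as a direct p53 target in human cells, had 114, 134 and 121 CPM in cHyper mTEClo, against 48.7, 58.7 and 60.9 CPM in WT mTEClo. It rose 2.19-fold there (log2 1.13, SE 0.17, edgeR adjusted p = 0.000514), with no overlap. In mTEChi it had 87.3, 109.8 and 107 CPM in cHyper, against 45.8, 68.7 and 78.1 CPM in WT, also without overlap, and just missed the threshold (0.66, SE 0.16, adjusted p = 0.0550). Rps27, from which it differs at 18 of the first 60 coding bases, stood at 0.09 in mTEClo (adjusted p = 0.727) and 0.31 in mTEChi (adjusted p = 0.285), and the identical Rps27rt at 0.19 (adjusted p = 0.393) and 0.40 (adjusted p = 0.131). Rps27l was the 1 called gene among 7 tested paralogs in mTEClo, and 0 of 7 passed in mTEChi. Between cell types Rps27l did not pass (-0.28 in cHyper and 0.19 in WT), whereas Rps27rt fell in both genotypes (-0.36, adjusted p = 0.0196 in cHyper, and -0.57, adjusted p = 0.000833 in WT). In cHyper, 1 of the 7 tested paralogs (14.3%) rose in mTEChi and 1 (14.3%) fell, against 38.7% and 25.8% of all genes. In WT, 1 (14.3%) rose and 2 (28.6%) fell, against 40.2% and 29.4%. The highest log2 estimates in the list were 3.17 in cHyper and 3.16 in WT. Of the ribosomal proteins with other symbols, Rps3a1, Fau and Rack1 did not pass by genotype in either cell type. Between cell types Fau, whose protein is made as a fusion with a ubiquitin-like protein, passed in WT (-0.50, adjusted p = 0.00756) and not in cHyper (-0.26, adjusted p = 0.141).

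**Figure D5:**
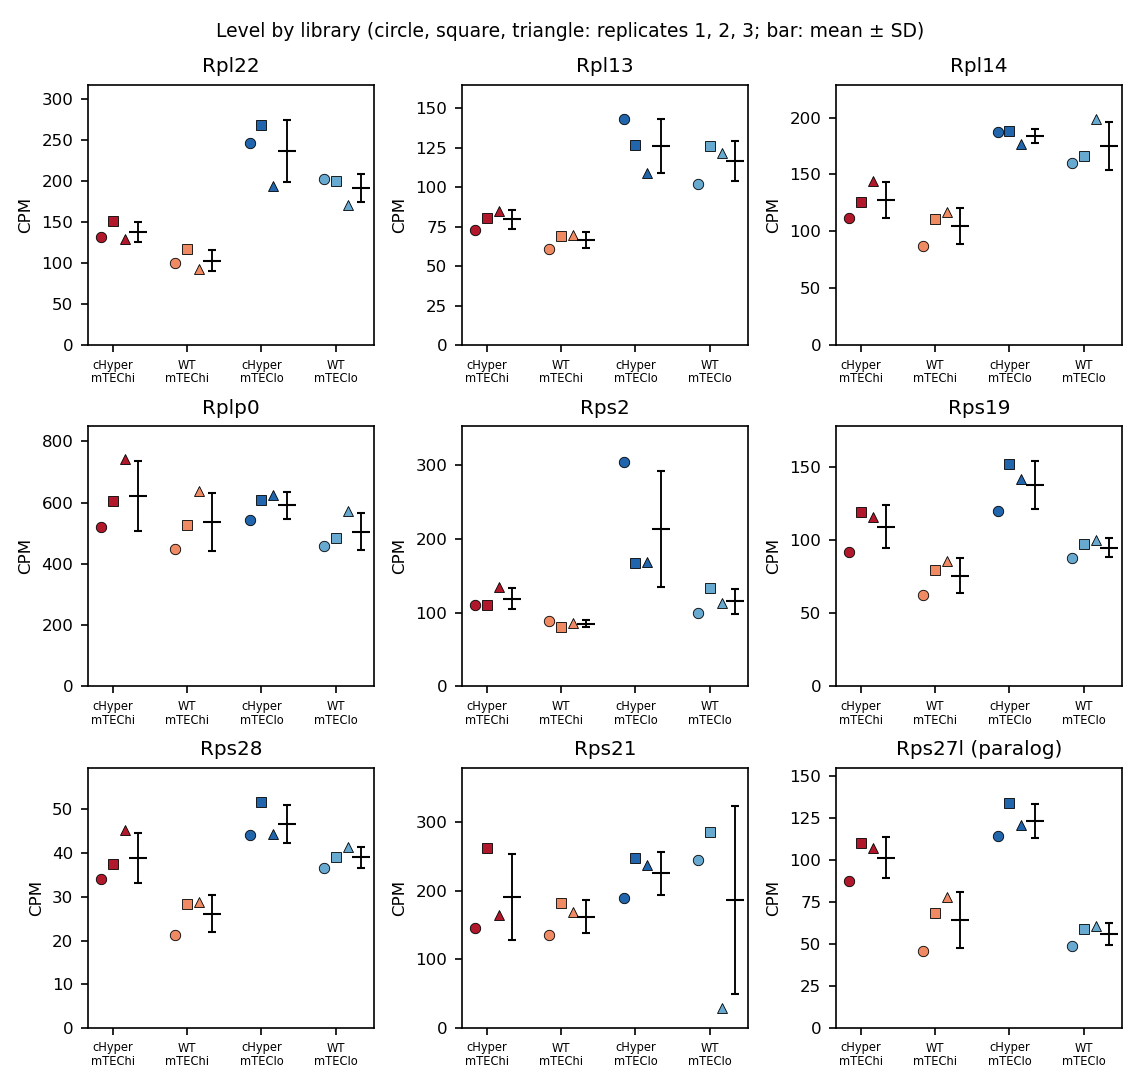
CPM by library for 8 of the ribosomal protein genes and the paralog Rps27l, with the group mean and SD (n = 3). Rpl22, Rpl13 and Rpl14 are lower in both mTEChi groups, Rplp0 is not, Rps27l is higher in the cHyper groups, and Rps21 drops to 29.7 CPM in WT mTEClo replicate 3.

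Genes that work with the ribosome were read from lists, whose counts stand against the all-gene shares given above: 25.8% lower and 38.7% higher in cHyper, and 29.4% lower and 40.2% higher in WT. Of 15 translation factors and other TOP mRNAs, 10 (66.7%) fell and 0 rose in mTEChi in cHyper (median -0.31), and 8 (53.3%) fell and 0 rose in WT (median -0.29). Tpt1, a TOP mRNA, fell 1.73-fold in cHyper (adjusted p = 1.5e-05) and 1.88-fold in WT (adjusted p = 2.9e-06), and the elongation factor subunit Eef1g fell by 0.66 in cHyper and by 0.71 in WT on the log2 scale. By genotype, Pabpc1, the poly(A)-binding protein, and the initiation factor Eif4b rose in cHyper mTEClo (1.57-fold, adjusted p = 0.0325, and 1.34-fold, adjusted p = 0.0454), and 0 of 15 passed in mTEChi.

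Of 29 ribosome biogenesis genes, 9 (31.0%) fell and 1 rose in mTEChi in cHyper (median -0.15), and 16 (55.2%) fell and 1 rose in WT (median -0.31). The cHyper share that fell is near that of all genes. Ubtf, which drives transcription of ribosomal RNA, averaged 87.6 ± 7.96 CPM in cHyper mTEChi against 175 ± 45.0 CPM in cHyper mTEClo (SD, n = 3 each), and fell (edgeR adjusted p = 0.000277). In WT, Ubtf averaged 69.4 ± 14.5 CPM in mTEChi against 169 ± 23.7 CPM in mTEClo and fell as well (edgeR adjusted p = 2.5e-05). Eif6, which keeps the subunits apart, was the gene that rose (0.37, adjusted p = 0.0295 in cHyper, and 0.39, adjusted p = 0.0195 in WT). By genotype, Rrn3, an initiation factor of RNA polymerase I, rose in cHyper mTEClo (1.32-fold, adjusted p = 0.0269), and 0 of 29 passed in mTEChi.

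The mitochondrial ribosomal proteins, which serve the ribosome inside mitochondria, were called in both directions, in cHyper at shares below those of all genes. Of 78, 17 (21.8%) fell and 11 (14.1%) rose in mTEChi in cHyper (median -0.16), and 29 (37.2%) fell and 12 (15.4%) rose in WT (median -0.23). Mrps24 fell in both (-1.02, adjusted p = 4.6e-05 in cHyper, and -1.07, adjusted p = 2.6e-05 in WT), and Mrpl38 rose in both (0.67, adjusted p = 0.000220 in cHyper, and 0.89, adjusted p = 1.4e-05 in WT). By genotype, Mrpl51 was the 1 gene to pass in each cell type, higher in cHyper (1.39-fold in mTEChi, adjusted p = 0.0384, and 1.33-fold in mTEClo, adjusted p = 0.0300).

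Host genes of small nucleolar RNAs, several of which carry a TOP tract, were a list of 7. Of these, 5 (71.4%) fell in mTEChi in cHyper (median -0.66, with 1 positive estimate) and 6 (85.7%) in WT (median -0.89). Snhg12 fell 1.93-fold in cHyper (adjusted p = 6.2e-07) and 2.37-fold in WT (adjusted p = 2.8e-08), and Gas5 fell by 0.81 in cHyper and by 1.28 in WT on the log2 scale. By genotype 0 of 7 passed in either cell type.

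Regulators of ribosome synthesis went in both directions. Of 13, 8 (61.5%) fell and 2 rose in mTEChi in cHyper, and 7 (53.8%) fell and 4 rose in WT. Ddit4, an inhibitor of mTOR complex 1, fell 2.92-fold in cHyper and 3.72-fold in WT, and Tsc2, another inhibitor, fell 1.74-fold in cHyper and 1.96-fold in WT. Sesn2, a leucine sensor that restrains the complex, rose 4.68-fold in cHyper and 4.93-fold in WT. Mtor itself fell (-0.41, adjusted p = 0.00536 in cHyper, and -0.36, adjusted p = 0.0107 in WT). Myc, a transcription factor that drives ribosomal protein genes, did not pass in any of the 4 comparisons (adjusted p 0.236 to 0.767). By genotype, Mycn and Eif4ebp2 rose in cHyper mTEClo, and Ddit4 rose in cHyper mTEChi (1.64-fold, adjusted p = 0.00847).

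Genes whose levels across the 12 libraries were most like the mean of the members were mostly their copies. Of the 10 with the highest Pearson correlation among other genes of at least 100 CPM, 8 were near-identical copies of a member, led by Gm9385, a copy of Rpl24 (r = 0.988), Gm10275, a copy of Rpl12 (r = 0.985), and Rps27rt (r = 0.983). The other two were Gm6863 (r = 0.985) and Gm5148 (r = 0.981), which did not match a member by the criterion used.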

How the data were processed

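Per the submitters' processing notes, reads of TruSeq stranded mRNA libraries were handled with TopHat2 2.1.1, SAMtools 1.9 and featureCounts (Subread 2.0.1) on mm10; the sources used here do not give its settings for strand and multi-mapping fragments. The authors deposited fragment counts and TPM per gene for 12 libraries made from 20 samples, the 2 runs of replicates 1 and 2 already combined. Counts were fitted here with edgeR 4.0.16 (quasi-likelihood, TMM scaling, the default filter on low counts, 1 fit of 4 groups), with Benjamini-Hochberg adjustment over 28932 genes; CPM are TMM-scaled, and the code was checked on simulated data. TPM served for levels between genes, divided by the deposited gene length (kb, merged exons), which can include retained introns. Copies were found with blastn 2.17.0 among GENCODE M21 transcripts. Alternatives used DESeq2 1.42.0, limma 3.58.1, other scalings, a replicate block and left-out libraries. Pairing was judged from same-numbered libraries: the correlations of their deviations from group means were 0.136 to 0.206 between genotypes in mTEChi and 0.104 to 0.125 between cell types in cHyper, all above 0.1, and reached 0.0970 and 0.0930 at the lowest in the other two comparisons, which were not taken as paired. Named members were a fixed set of 18 plus those with the smallest p, the extreme estimates and extreme levels, with up to 4 genes of each list. Rps21 and Rps3 were singled out after their values were seen. The members and lists were chosen with earlier results of these data known.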

Additional observations from a re-analysis of the deposited data

Results flagged for a closer look

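Among the members and the listed genes, 1 gene had a genotype difference that differed between the cell types by an interaction test. Mycn (chromosome 12, 12936093 to 12941914), a paralog of Myc, had 5.62, 4.91 and 5.68 CPM in cHyper mTEChi, against 5.28, 4.89 and 6.31 CPM in WT mTEChi. In mTEClo it had 6.85, 4.48 and 4.40 CPM in cHyper, against 1.46, 1.64 and 1.97 CPM in WT. The log2 difference between the genotype effects was -1.67 (SE 0.30, edgeR adjusted p = 0.00959): the genotype effect was -0.02 in mTEChi (adjusted p = 0.973) and 1.65 in mTEClo (adjusted p = 0.000243). WT mTEClo was the 1 group that stood low. Groups of 3 libraries were not tested for outlying samples.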

How the results depend on the processing

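The members' median log2 fold change kept its sign in all comparisons under every alternative run. For cHyper against WT in mTEClo, the count of members called higher was 2, and it was 8 with the replicate block (10 with copies added), 1 with replicates 1 and 2 only (chosen after seeing the data, as were all settings with copies), and 1 to 3 when each library was left out in turn. In mTEChi that count was 1 (1.32%, against 1.56% of all genes). It was 0 with DESeq2 size factors, library totals, copies added, or copies with library totals. Only the compared groups gave 2, limma-voom 3 (3.95%, against 1.76%), DESeq2 4 (5.26%, against 2.47%) and no filter on low counts 5. The replicate block gave 15 (19.7%, against 3.26%) and the block with copies 21 (27.6%, against 3.20%). Leaving out each library gave 0 to 1. For mTEChi against mTEClo in cHyper, 31 members were called lower (40.8%, against 25.8% of all genes). With library totals the count was 9 (11.8%, against 19.2%, median -0.13). With copies and library totals it was 5 lower (6.58%, against 19.5%, median -0.11) and 1 higher. Under both, the share called lower was smaller than that of all genes. The replicate block gave 52 (68.4%, against 28.2%) and the block with copies 59 (77.6%, against 28.6%). Leaving out each library gave 14 to 43 (median -0.37 to -0.21). In WT, 53 were called lower (69.7%, against 29.4% of all genes). With library totals the count was 26 (34.2%, against 21.7%, median -0.19). With copies and library totals it was 21 lower (27.6%, against 21.7%, median -0.18) and 1 higher. The replicate block gave 65 (85.5%, against 31.3%), and leaving out each library gave 42 to 63 (median -0.55 to -0.35). The cause of these shifts was not tested. All-gene shares are not given for the fits without a library, without the filter or with only the compared groups, so those counts stand alone. The same-numbered libraries were not taken as paired between genotypes in mTEClo or between cell types in WT, although each of the 12 libraries correlated best with its own number on average. Of the named members' values, 2457 kept direction and side of the threshold, 94 lost the call, 67 gained it, and 166 uncalled estimates changed sign. As a share of deposited TPM the members made up 1.73% in cHyper mTEChi, 1.54% in WT mTEChi, 1.88% in cHyper mTEClo and 1.71% in WT mTEClo, in the same order as their shares of fragments. The planned addition of pseudogenes by symbol gave no value, since no symbol had that form. Members of low count, such as Rps29, and those whose fragments are shared with copies are the least certain.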
